A study of Homo sapiens with 12 samples.

Results

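The genes described here encode the large adhesive glycoproteins of the extracellular matrix: the laminin chains LAMA3, LAMA4, LAMA5, LAMB1, LAMB3 and LAMC1, the laminin-binding protein nidogen 1 (NID1), fibronectin (FN1) and tenascin C (TNC). They were taken by name, 9 genes of the 61044 gene IDs in the deposited table, and each symbol matched 1 ID. The libraries, 3 in each of 4 groups, are of SCC-15, an established line of human oral squamous carcinoma. NC cells carried a negative-control short hairpin RNA, and the shRNA1, shRNA2 and shRNA3 cells each carried a different hairpin against FMOD, the gene of the matrix proteoglycan fibromodulin. All groups were grown in serum-containing medium and harvested after 48 hours, and whether a line was a single clone or the 3 libraries of a group came from separate cultures is not given in the sources used here. P-values therefore measure only the spread between these libraries, which may be technical. The series asks what changes when FMOD is depleted, and places FMOD upstream of EGFR signalling in its title.

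Laminins are heterotrimers of an α, a β and a γ chain that assemble into the sheet of the basement membrane beneath epithelia. LAMA3 and LAMB3 encode chains of the trimer of squamous epithelium that anchors keratinocytes through α6β4 integrin and hemidesmosomes, while LAMA5 or LAMA4 pair with LAMB1 (or LAMB2) and LAMC1. Nidogen binds the γ1 chain and links the laminin sheet to collagen IV. Fibronectin is a soluble and fibrillar ligand of RGD-binding integrins such as α5β1 and αV integrins, and tenascin C is a matricellular protein of wounds and tumour margins that modulates adhesion to fibronectin.

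The promoters of the 5 members whose levels differed most in kind are shown, because LAMA3 and LAMB3 encode partner chains, TNC and NID1 moved in opposite directions, and FN1 differed between hairpins. Each is the RefSeq window of 250 bases before to 50 bases after a start (GRCh38.p14), 5′ to 3′ on the gene's strand, with capitals marking matches on either strand. The AP-1 motif was searched as TGANTCA, the motif of TEAD factors as CATTCC, the GC box that Sp factors bind as GGGCGG, and the TATA box by the letters TATAAA. Windows were found for all 9 members. The windows shown are chr9:115118108-115118407 (minus strand) for TNC, chr1:236065041-236065340 (minus) for NID1, chr2:215436019-215436318 (minus) for FN1, chr18:23872770-23873069 (plus) for LAMA3 and chr1:209651325-209651624 (minus), the third of 3 listed starts, for LAMB3.
TNC: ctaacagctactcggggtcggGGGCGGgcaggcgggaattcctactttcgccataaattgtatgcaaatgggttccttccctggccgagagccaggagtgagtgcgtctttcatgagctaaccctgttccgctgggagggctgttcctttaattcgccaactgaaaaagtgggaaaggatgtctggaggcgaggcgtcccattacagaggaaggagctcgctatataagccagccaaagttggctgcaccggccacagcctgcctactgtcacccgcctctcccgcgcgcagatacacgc
NID1: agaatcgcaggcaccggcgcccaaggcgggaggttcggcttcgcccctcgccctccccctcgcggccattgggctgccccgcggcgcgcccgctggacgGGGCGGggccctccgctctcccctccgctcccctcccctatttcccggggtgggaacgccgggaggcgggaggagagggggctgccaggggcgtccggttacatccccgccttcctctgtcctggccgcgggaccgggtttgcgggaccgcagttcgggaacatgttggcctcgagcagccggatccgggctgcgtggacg
FN1: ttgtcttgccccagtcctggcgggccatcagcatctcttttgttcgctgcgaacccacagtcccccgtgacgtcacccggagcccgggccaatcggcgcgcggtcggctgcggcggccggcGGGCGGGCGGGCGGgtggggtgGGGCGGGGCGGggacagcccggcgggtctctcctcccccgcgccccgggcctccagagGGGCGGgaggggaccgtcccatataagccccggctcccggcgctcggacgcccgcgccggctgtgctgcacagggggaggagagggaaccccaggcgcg
LAMA3: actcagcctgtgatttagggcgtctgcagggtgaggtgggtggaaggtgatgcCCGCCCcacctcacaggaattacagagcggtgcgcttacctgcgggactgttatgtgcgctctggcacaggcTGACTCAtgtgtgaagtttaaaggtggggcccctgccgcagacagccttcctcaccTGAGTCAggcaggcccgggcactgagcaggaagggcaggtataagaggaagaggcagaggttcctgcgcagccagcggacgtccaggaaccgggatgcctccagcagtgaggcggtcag
LAMB3: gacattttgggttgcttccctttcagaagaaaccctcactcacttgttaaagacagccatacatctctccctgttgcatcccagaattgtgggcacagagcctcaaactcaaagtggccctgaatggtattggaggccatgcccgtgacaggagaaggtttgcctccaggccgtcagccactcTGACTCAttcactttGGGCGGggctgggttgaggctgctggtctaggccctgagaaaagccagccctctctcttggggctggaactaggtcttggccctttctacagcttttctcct
Matches to TGANTCA were found in the LAMA3 window, at positions -125 and -69 from the start, and in this LAMB3 window, at -67. The windows of LAMB3 starts 1 and 2, which are not printed, held none, and neither did any window of the other 7 members. Every member but LAMA4 had at least 1 GC box in a window. Of 35116 promoter windows of the same length, 7.71% hold TGANTCA. The FN1 window holds 6 GC boxes, some of which overlap, and 45% of all windows hold at least 1. CATTCC (in 14% of windows) and TATAAA (in 11.5%) were in no window of the 9 members. A match is a description of letters and not evidence of a bound factor.

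Library totals lay between 17286934 and 19567192 estimated counts. FMOD itself had 2, 2 and 3 counts in the NC libraries and 0 in all 9 shRNA libraries, so the targeted gene was at the limit of detection throughout. Across the 17532 genes that passed the filter on low counts, a large share of the transcriptome differed between NC and each hairpin: 57.4% of genes for shRNA1, 53% for shRNA2 and 53.9% for shRNA3 (edgeR quasi-likelihood test, Benjamini-Hochberg adjusted p under 0.05). Libraries 1 and 2 of shRNA3 stood apart from its library 3, with TMM scaling factors of 0.771 and 0.795 against 1.06. Library 3 correlated with the shRNA1 and shRNA2 libraries at 0.979 to 0.988 (Pearson r of log levels). For libraries 1 and 2 these values were 0.907 to 0.929 and 0.904 to 0.926, and within shRNA3 r was 0.916 to 0.995. Values for shRNA3 are also given without libraries 1 and 2 for the members, and for list genes where they move by over 1.5 times. Such values rest on library 3 alone, which was closer to the other hairpins than libraries 1 and 2 were. Which libraries represent shRNA3 was not tested. Levels are given in CPM, counts scaled to a common library total with factors (TMM) that set most genes equal. All 10 epithelial markers were at or above 1 CPM in every NC library, and their summed level was 2370 to 2570 CPM in NC, 1590 to 2000 with shRNA1, 1790 to 1860 with shRNA2 and 1580 to 2690 with shRNA3. With shRNA1 and shRNA2 9 of the 10 were at or above 1 CPM in every library, and with shRNA3 all 10 were. The sums hide markers that moved apart. With all 3 hairpins 3 of the 10 were higher (KRT14, KRT6A and KRT17), as 16% of all tested genes were, and 3 were lower, as 19.7% were. Among the lower ones were KRT5, from 1010 ± 42.4 CPM in NC to 21.4 ± 6.71, 80.2 ± 2.47 and 74.9 ± 22, and CDH1, from 323 ± 12.7 to 38.2 ± 2.87, 53.4 ± 2.35 and 66.1 ± 19.0. Immune markers, led by CD68, summed to 59.7 to 78.2 CPM in NC, 45.3 to 98.4 with shRNA1, 82.3 to 88.7 with shRNA2 and 110 to 238 with shRNA3, with PTPRC at 0 in NC. The immune sums followed CD68, at mean levels of 63.2 CPM in NC and 75.6, 82.4 and 191 with shRNA1, shRNA2 and shRNA3. Of 3 immune markers tested, 2 were lower (19.7% of all tested genes) and 0 higher (16%) with all 3 hairpins. CD14 fell from a mean of 4.17 CPM in NC to 0.808, 1.85 and 0.765 with the hairpins. ITGAM fell from 1.46 to 0.586, 0.607 and 0.518. The part of the epithelial and immune markers in the results was not tested. In bulk RNA a smaller number of cells of a type and less RNA per cell cannot be told apart.

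Of the 9 members, 3 differed from NC with shRNA1, where 57.4% of all genes did. With shRNA1 1 member was higher (26.8% of all genes) and 2 were lower (30.6%). With shRNA2 6 members differed (53% of all genes), 2 higher (24.6%) and 4 lower (28.4%). With shRNA3 7 differed (53.9%), 4 higher (26.4%) and 3 lower (27.6%). For the mean of the hairpins 7 members differed from NC, where 60% of all genes did. TNC was lower and NID1 higher with all 3 hairpins, and no other member passed for all 3 in a constant direction. That is 2 of 9 members, where 35.7% of all tested genes did so, 16% higher and 19.7% lower. All 9 members passed the filter, NID1 only through its shRNA libraries, where it was high. The median log2 fold change of the members was 0.00, 0.28 and 0.57 with shRNA1, shRNA2 and shRNA3, and that of all tested genes was -0.02, -0.05 and -0.03. The contrasts with NC share its 3 libraries.

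**Figure D1:**
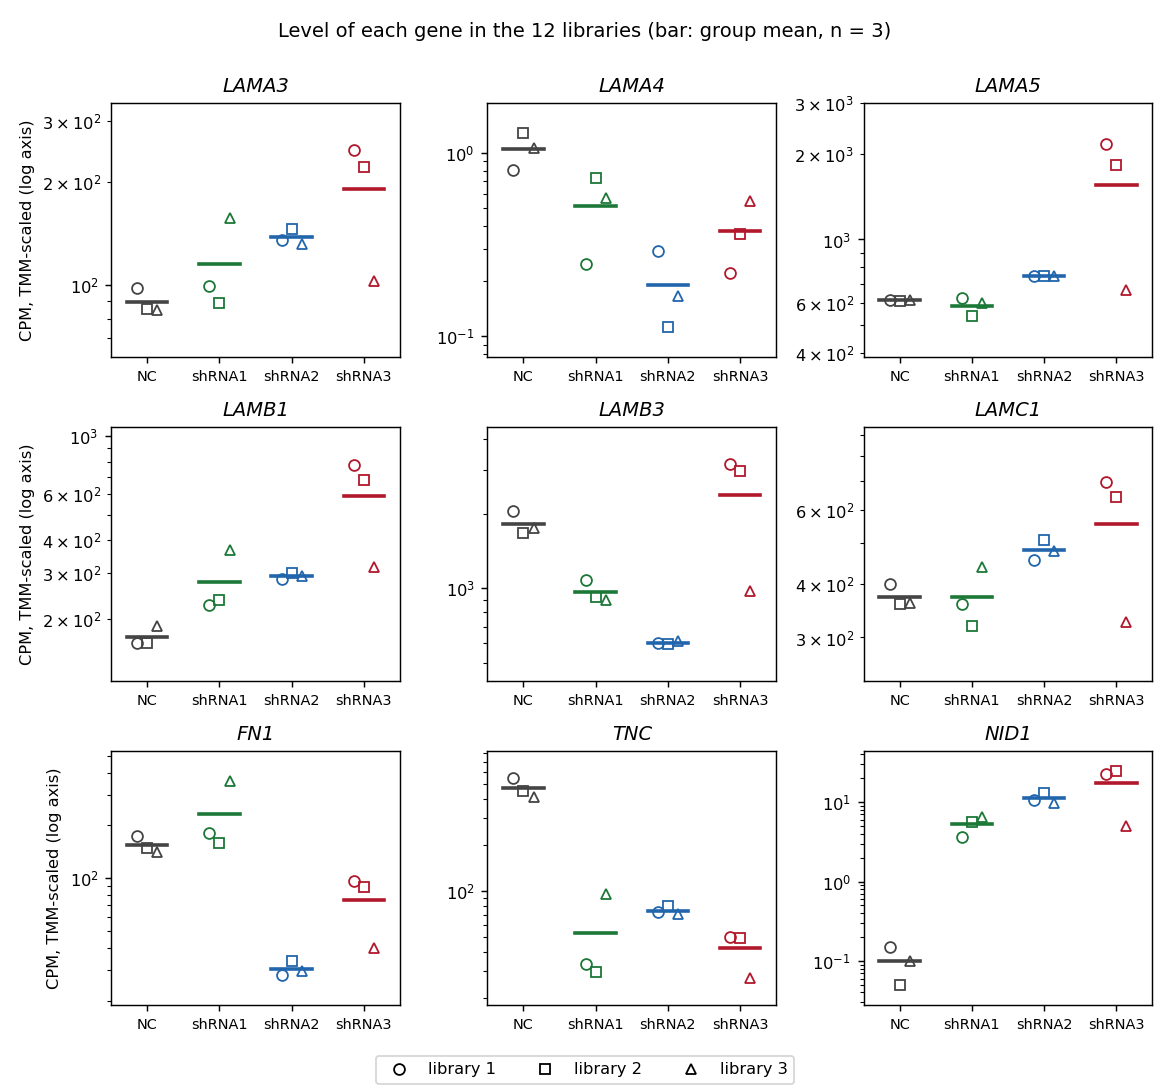
Level of each of the 9 genes in CPM (counts scaled to a common library total with TMM factors, log axis) in the 3 libraries of NC, shRNA1, shRNA2 and shRNA3, with symbols for the library number and a bar at the group mean. TNC lies between 415 and 548 CPM in NC and at or below 95.3 CPM in all shRNA libraries, NID1 shows the opposite order, and shRNA3 libraries 1 and 2 lie above library 3 for 8 of the 9 genes, all but LAMA4.

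**Figure D2:**
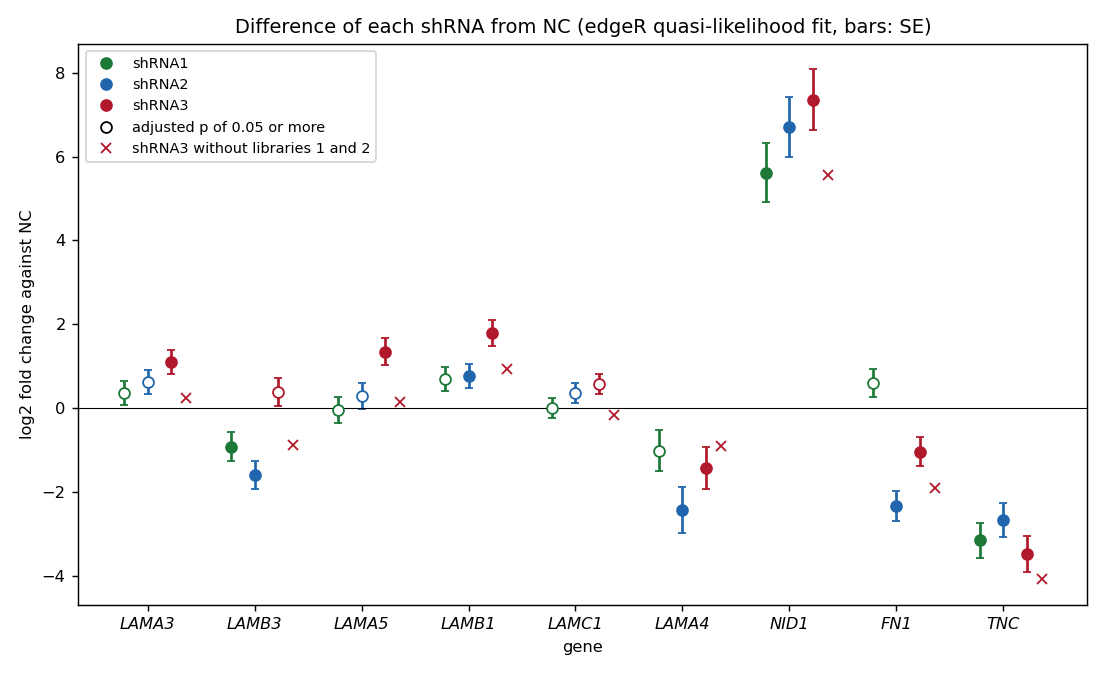
Log2 fold change of each gene against NC for the 3 hairpins, with its standard error (open points had an adjusted p of 0.05 or more). Crosses give shRNA3 without its libraries 1 and 2, where LAMB3 is at -0.88 instead of 0.38 and LAMA5 at 0.15 instead of 1.34.

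The α3 and β3 chains, which belong to the epithelial laminin trimer, did not move together. LAMB3 (ENSG00000196878, chromosome 1, 209614870 to 209652466, minus strand in GRCh38, GENCODE release 29, with MIR4260 inside it) was read at 2050, 1680 and 1750 CPM in NC libraries 1 to 3. It stood at 1080, 926 and 899 CPM with shRNA1 and at 602, 596 and 610 CPM with shRNA2. Every shRNA1 and shRNA2 library was thus below every NC library, and all shRNA2 libraries were below all shRNA1 libraries. LAMB3 fell with shRNA1, at a log2 fold change of -0.92 (SE 0.34, adjusted p = 0.0356, edgeR quasi-likelihood), and with shRNA2, at -1.60 (SE 0.34, adjusted p = 0.00212). The shRNA1 call was lost when any library of NC or shRNA1 was left out, with an adjusted p of up to 0.0986 over all alternatives.

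With shRNA3 the LAMB3 libraries fell on both sides of NC. Libraries 1 and 2 were at 3180 and 2990 CPM, above all NC libraries, and library 3 was at 972 CPM, below them. The log2 fold change of 0.38 (SE 0.33) did not pass (adjusted p = 0.355, edgeR quasi-likelihood). From library 3 alone it was -0.88 (adjusted p = 0.000143, edgeR quasi-likelihood, with the spread of that library assumed to be like that of the other groups), and from libraries 1 and 2 it was 0.75 (adjusted p = 9.29e-06).

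LAMA3 (ENSG00000053747, chromosome 18, 23689443 to 23956222, plus strand, opposite the pseudogene RPL23AP77) encodes the α chain that binds α6β4 and α3β1 integrins. Its NC libraries were at 98.4, 85.3 and 84.7 CPM, and its shRNA1 libraries at 99.3, 88.7 and 157 CPM. The shRNA2 libraries stood at 135, 146 and 132 CPM and the shRNA3 libraries at 247, 221 and 103 CPM. All shRNA2 and shRNA3 libraries were above NC, whereas shRNA1 overlapped it. LAMA3 rose with shRNA3, by a log2 fold change of 1.09 (SE 0.29, adjusted p = 0.00855, edgeR quasi-likelihood), and from library 3 alone the value was 0.23 (adjusted p = 0.431). With shRNA1 and shRNA2 the values were 0.36 (adjusted p = 0.308) and 0.62 (adjusted p = 0.0944), and the latter passed in a fit of the NC and shRNA2 libraries alone (adjusted p = 5.16e-07). In the fit of all libraries no pair of hairpins differed in LAMA3 beyond the threshold. LAMA3 did pass as higher with shRNA3 than with shRNA1 when library 3 of shRNA1 or of shRNA3 was left out. It also passed as higher than with shRNA2 when shRNA3 library 3 was left out. From shRNA3 library 3 alone both signs turned, at 0.14 for shRNA1 against shRNA3 and 0.41 for shRNA2 against shRNA3. A rise particular to shRNA3 is therefore not shown.

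Ratios of counts per kilobase of merged exon within a library do not depend on how libraries are scaled, and by this measure the balance of the β3 and α3 chains differed between groups. LAMB3 to LAMA3 was 63.9 ± 1.92 in NC (SD, n = 3), against 28.2 ± 8.95 in shRNA1 libraries, 13.7 ± 0.855 in shRNA2 and 37.4 ± 6.89 in shRNA3. The lowest NC library, at 61.6, was above the highest shRNA library, at 42.4, and shRNA2 was below every other group. The shRNA3 libraries 1, 2 and 3 stood at 40.3, 42.4 and 29.5, so library 3, which lay below NC in LAMB3 itself, and libraries 1 and 2, which lay above it, were all below NC in this ratio. These ratios are given without a test, since 3 libraries against 3 cannot reach a p below 0.10 in an exact permutation test.

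**Figure D3:**
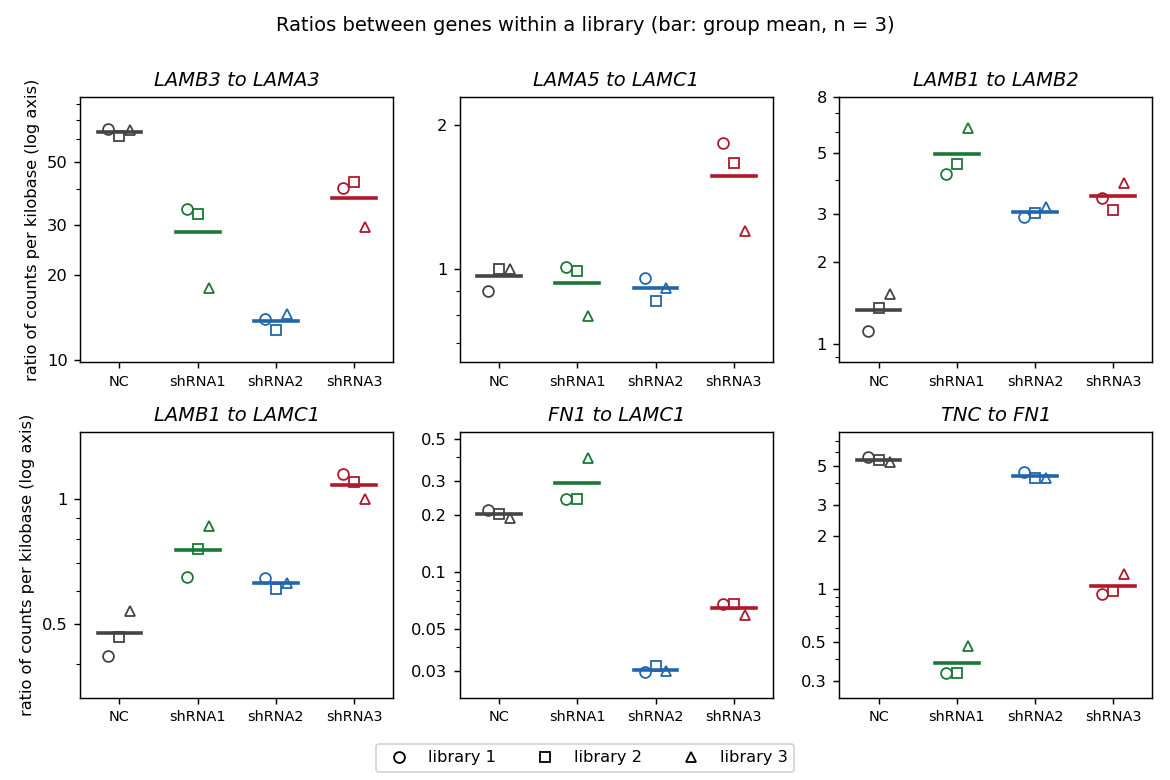
Ratios of counts per kilobase of merged exons between pairs of genes in each library (log axis), with a bar at the group mean. The NC libraries are highest for LAMB3 to LAMA3 (61.6 to 65.1) and lowest for LAMB1 to LAMB2 (1.12 to 1.52), and TNC to FN1 is lowest with shRNA1 (0.332 to 0.475).

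Among the chains of the broadly expressed laminins, LAMB1 rose with shRNA2 and shRNA3 and LAMC1 did not pass in any contrast in the fit of all libraries. LAMB1 (ENSG00000091136, chromosome 7, 107923799 to 108003255, minus strand, opposite DLD), the β1 chain, was read at 162, 162 and 188 CPM in NC and at 226, 235 and 366 CPM with shRNA1. It stood at 284, 299 and 291 CPM with shRNA2 and at 774, 682 and 317 CPM with shRNA3. All 9 shRNA libraries were above all NC libraries. LAMB1 rose with shRNA2 (log2 fold change 0.77, SE 0.29, adjusted p = 0.0415, edgeR quasi-likelihood) and with shRNA3 (1.79, SE 0.30, adjusted p = 0.000386), and was at 0.69 with shRNA1 (SE 0.29, adjusted p = 0.0589). From shRNA3 library 3 alone the rise was 0.92 (adjusted p = 0.00283). The shRNA2 call did not hold with scaling by DESeq2 size factors or with the replicate number as a block (adjusted p = 0.0677). It was also lost without any 1 library of NC or shRNA2. The shRNA1 value passed without the filter on low counts, without TMM factors, and in a fit of the NC and shRNA1 libraries alone (adjusted p = 0.00633).

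LAMC1 (ENSG00000135862, chromosome 1, 183023460 to 183145592, plus strand, opposite LAMC1-AS1), the γ1 chain common to most laminins, is their shared partner. Its libraries were at 401, 360 and 361 CPM in NC, 360, 320 and 440 with shRNA1, 456, 509 and 480 with shRNA2 and 695, 643 and 327 with shRNA3. The shRNA2 libraries were above NC and the other groups overlapped it. Log2 fold changes were 0.00 (adjusted p = 0.995), 0.36 (adjusted p = 0.222) and 0.57 (adjusted p = 0.0639) with shRNA1, shRNA2 and shRNA3 (edgeR quasi-likelihood). LAMC1 did pass with shRNA2 in a fit of the NC and shRNA2 libraries alone (0.37, adjusted p = 7.41e-05), and with shRNA3 without its library 3 (0.83, adjusted p = 1.37e-05), while from library 3 alone it was at -0.16 (adjusted p = 0.385).

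LAMA5 (ENSG00000130702, chromosome 20, 62307955 to 62367312, minus strand, opposite ADRM1 and LAMA5-AS1), the main α chain of mature epithelial basement membranes, varied little between libraries in NC, shRNA1 and shRNA2. It was read at 613, 610 and 615 CPM in NC, at 622, 539 and 597 with shRNA1 and at 743, 743 and 746 with shRNA2. The shRNA3 libraries stood at 2160, 1820 and 666 CPM. LAMA5 rose with shRNA3 (log2 fold change 1.34, SE 0.32, adjusted p = 0.00425, edgeR quasi-likelihood), and this rested on libraries 1 and 2, since library 3 alone gave 0.15 (adjusted p = 0.244). With shRNA1 and shRNA2 it was at -0.06 (adjusted p = 0.875) and 0.28 (adjusted p = 0.481), although every shRNA2 library was above every NC library, and the shRNA2 value passed in a fit of those 2 groups alone (adjusted p = 0.000234). Whether reads of the genes on the opposite strand enter these counts was not tested, since the strand setting is not given in the sources used here.

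LAMA4 (ENSG00000112769, chromosome 6, 112108760 to 112254939, minus strand), the α chain of endothelium and mesenchyme, was barely read. Its counts were 16, 26 and 21 in NC, 5, 15 and 11 with shRNA1, 5, 2 and 3 with shRNA2 and 3, 5 and 11 with shRNA3. In CPM the groups had means of 1.05 ± 0.237, 0.514 ± 0.243, 0.191 ± 0.0924 and 0.378 ± 0.162 (SD, n = 3), and all shRNA libraries were below all NC libraries. LAMA4 fell with shRNA2 (log2 fold change -2.43, SE 0.55, adjusted p = 0.00297, edgeR quasi-likelihood) and with shRNA3 (-1.43, SE 0.51, adjusted p = 0.0334). With shRNA1 it was at -1.02 and did not pass (SE 0.49, adjusted p = 0.0921). The shRNA3 call was lost with the replicate block (adjusted p = 0.0521), with the DESeq2 Wald test and without a filter. It was also lost when NC library 2 or 3, or shRNA3 library 1 or 2, was left out. From shRNA3 library 3 alone the value was -0.91. Endothelial markers summed to 18.4 to 24.0 CPM in NC and to 5.87 to 16.1 CPM over the shRNA libraries, but the list went both ways. Of 8 markers 4 were tested, and with all 3 hairpins 2 were higher (16% of all tested genes) and 2 lower (19.7%). CDH5 fell from 17.3 ± 2.78 CPM in NC to 1.94 ± 0.704, 2.53 ± 0.365 and 1.35 ± 1.2 with shRNA1, shRNA2 and shRNA3, and VWF fell too. PECAM1 rose from 0.133 ± 0.0553 CPM to 2.60 ± 0.449, 4.76 ± 0.82 and 8.74 ± 0.838, and ESAM rose too. PECAM1 and ESAM passed the filter on low counts only through shRNA libraries and VWF only through NC, where each was high. Fibroblast markers summed to 71.9 to 76.9 CPM in NC, 26.4 to 34.0 with shRNA1, 61.4 to 64.3 with shRNA2 and 52.6 to 119 with shRNA3, with DCN and THY1 at 0 in NC. COL1A1 led this sum, at 41.7 ± 1.36 CPM in NC and 17.3 ± 2.47, 44.6 ± 2.06 and 65.9 ± 29.6 with the hairpins. Of 5 tested, 3 were lower (19.7% of all tested genes) and 0 higher (16%) with all 3 hairpins. PDGFRB fell from 10.7 ± 1.22 CPM to 0.765 ± 0.115, 1.10 ± 0.17 and 0.728 ± 0.332, and COL1A2 and LUM fell too. COL1A2 and LUM passed the filter on low counts only through NC, where they were high. The part of both marker lists in the LAMA4 result was not tested.

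LAMB2, the β chain that can replace LAMB1, was at 123, 100 and 104 CPM in NC, 45.3, 43.3 and 50.2 with shRNA1, 82.3, 83.2 and 77.1 with shRNA2 and 190, 187 and 68.5 with shRNA3. It fell with shRNA1 (log2 fold change -1.24, SE 0.30, adjusted p = 0.00412, edgeR quasi-likelihood) and did not pass with shRNA2 (-0.43, adjusted p = 0.238) or shRNA3 (0.44, adjusted p = 0.226). From shRNA3 library 3 alone LAMB2 was at -0.64 (adjusted p = 0.00227). Within libraries, LAMB1 to LAMB2 per kilobase was 1.33 ± 0.205 in NC (SD, n = 3), against 4.98 ± 1.03 in shRNA1 libraries, 3.04 ± 0.136 with shRNA2 and 3.48 ± 0.409 with shRNA3. No NC library, at most 1.52, reached the lowest shRNA library, at 2.91, and in this ratio shRNA3 libraries 1 to 3 were close, at 3.44, 3.09 and 3.90. LAMB1 to LAMC1 was 0.474 ± 0.0603 in NC, 0.755 ± 0.106 with shRNA1, 0.625 ± 0.0186 with shRNA2 and 1.08 ± 0.0766 with shRNA3, and here too every shRNA library was above every NC library.

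NID1 (ENSG00000116962, chromosome 1, 235975830 to 236065162, minus strand) went from the limit of detection to a low level. The NC libraries held 3, 1 and 2 counts, or 0.151, 0.0492 and 0.101 CPM. The shRNA1 libraries held 73, 116 and 127 counts (3.63, 5.62 and 6.56 CPM), the shRNA2 libraries 185, 231 and 178 (10.8, 13.0 and 9.86 CPM) and the shRNA3 libraries 308, 343 and 100 (22.8, 25.0 and 4.97 CPM). Every shRNA library was above every NC library. Against the 6 NC counts the ratio of summed counts was 52.4 for shRNA1 (exact 95% interval 23.8 to 144), 112 for shRNA2 (51.2 to 306) and 158 for shRNA3 (72.3 to 432), intervals that cover counting error only. Without shRNA3 libraries 1 and 2 the log2 fold change with shRNA3 was 5.57 (adjusted p = 5.04e-07, edgeR quasi-likelihood) instead of 7.36, near the 5.62 of shRNA1. NID1 rose with each hairpin (edgeR quasi-likelihood, adjusted p = 5.06e-05, 1.52e-05 and 8.86e-06), and in every alternative run, with adjusted p-values of at most 0.00134. NID2, the other nidogen, had at most 5 counts in any library and was not tested.

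FN1 (ENSG00000115414, chromosome 2, 215360440 to 215436172, minus strand, with no overlapping gene) was the member that separated the hairpins most clearly. NC libraries were read at 174, 149 and 142 CPM. The shRNA1 libraries stood at 181, 159 and 361 CPM, the shRNA2 libraries at 27.9, 33.5 and 29.6 CPM and the shRNA3 libraries at 96.4, 89.6 and 40.0 CPM. All shRNA2 and shRNA3 libraries were below NC, and shRNA1 overlapped it with 1 high library.

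FN1 fell with shRNA2 by 2.35 on the log2 scale (SE 0.36, adjusted p = 0.000219, edgeR quasi-likelihood) and with shRNA3 by 1.04 (SE 0.34, adjusted p = 0.0233), and from shRNA3 library 3 alone by 1.92 (adjusted p = 0.00372). The shRNA3 call was lost in a fit of the NC and shRNA3 libraries alone (adjusted p = 0.0617) and without NC library 1. With shRNA1 FN1 was at 0.59 (SE 0.34, adjusted p = 0.158), and at 0.14 without its library 3 (adjusted p = 0.719). The difference between hairpins itself passed: shRNA1 was above shRNA2 by 2.95 (SE 0.37, adjusted p = 0.00173) and above shRNA3 by 1.63 (SE 0.35, adjusted p = 0.00946). The shRNA1 to shRNA2 difference held in every alternative, with values from 2.49 to 3.15 and adjusted p-values of at most 0.015, where 12.3% of all genes differed between these hairpins.

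TNC (ENSG00000041982, chromosome 9, 115019578 to 115118257, minus strand, opposite DEC1) was lower with every hairpin. It was read at 548, 450 and 415 CPM in NC. The libraries stood at 33.4, 29.6 and 95.3 CPM with shRNA1, at 72.3, 79.4 and 70.5 with shRNA2 and at 50.2, 48.9 and 27.0 with shRNA3. The highest of the 9 shRNA libraries, at 95.3 CPM, was far under the lowest NC library, and the hairpin groups overlapped one another except that all shRNA2 libraries were above all shRNA3 libraries.

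TNC fell 8.92-fold with shRNA1 (log2 fold change -3.16, SE 0.42, adjusted p = 7.74e-05, edgeR quasi-likelihood), 6.36-fold with shRNA2 (-2.67, SE 0.41, adjusted p = 0.000234) and 11.2-fold with shRNA3 (-3.49, SE 0.43, adjusted p = 4.6e-05). The shRNA3 value was -4.09 without libraries 1 and 2 (adjusted p = 0.00231). In every alternative it stayed lower and past the threshold for all 3 hairpins, with adjusted p-values of at most 0.00231. None of the pairs of hairpins passed, with differences of -0.49 (SE 0.39), 0.33 (SE 0.39) and 0.82 (SE 0.39) for shRNA1 against shRNA2, shRNA1 against shRNA3 and shRNA2 against shRNA3, and this does not show that the hairpins acted alike. Without shRNA1 library 3 the difference between shRNA1 and shRNA2 was -1.23 and passed (adjusted p = 0.0107).

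The balance of the pair TNC and FN1 therefore differed by hairpin. TNC to FN1 per kilobase was 5.66, 5.41 and 5.26 in the NC libraries and 4.66, 4.26 and 4.28 with shRNA2. It was 0.332, 0.334 and 0.475 with shRNA1 and 0.936, 0.980 and 1.21 with shRNA3. NC and shRNA2 were nearest to each other, with both genes low in shRNA2, and no group overlapped another.

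The hairpins were also compared directly for all members. Between shRNA1 and shRNA2, FN1 alone passed (1 of 9, where 12.3% of all genes did and 5.78% were higher with shRNA1). Between shRNA1 and shRNA3, 5 of 9 passed, where 30% of all genes did: LAMA5 (log2 difference -1.40, SE 0.32), LAMB1 (-1.10, SE 0.29), LAMB3 (-1.30, SE 0.34) and NID1 (-1.74, SE 0.49) were lower with shRNA1, as 18.1% of all genes were, and FN1 was higher, as 11.9% were. Without shRNA3 libraries 1 and 2, FN1 was the only one of these 5 that passed. Between shRNA2 and shRNA3, 2 of 9 passed, where 8.34% of all genes did, namely LAMB3 (-1.98, SE 0.35, adjusted p = 0.0248, edgeR quasi-likelihood) and FN1 (-1.31, SE 0.35, adjusted p = 0.0456), both lower with shRNA2, as 6.43% of all genes were. Neither was called when any 1 library of shRNA2, or library 1 or 2 of shRNA3, was left out, while without shRNA3 library 3 the count was 7. From library 3 alone LAMB3 still differed (-0.70, adjusted p = 0.0239) and FN1 did not pass (-0.41, adjusted p = 0.635).

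On a scale per length, on which genes can be compared with each other, LAMB3 was the most abundant of the 9 members and LAMB2 in every group, at 390 ± 41.4 CPM per kilobase of merged exon in NC (SD, n = 3), against 207 ± 20.8 in shRNA1 libraries, 129 ± 1.43 in shRNA2 and 508 ± 261 in shRNA3. TNC (48.9 ± 7.13), LAMC1 (44.5 ± 2.78) and LAMA5 (42.9 ± 0.155) followed in NC and did not differ beyond their spread by merged exon length. By the longest coding transcript they were at 61.6 ± 9.0, 47.4 ± 2.96 and 53.6 ± 0.194, so that LAMA5 and LAMC1 changed order and differed beyond their SDs. LAMA3 was at 6.10 ± 0.526 in NC, far under LAMB3, and NID1 was the lowest gene of all at 0.0172 ± 0.00872. By merged exon length TNC was at rank 2 of 10 in NC, rank 8 with shRNA1 and rank 7 with shRNA2 and shRNA3. FN1 depends on the length used: its merged exons cover 17315 bases and its longest coding transcript 8905, so that its NC level of 8.96 ± 0.963 became 17.4 with the latter, at rank 7 by either length.

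**Figure D4:**
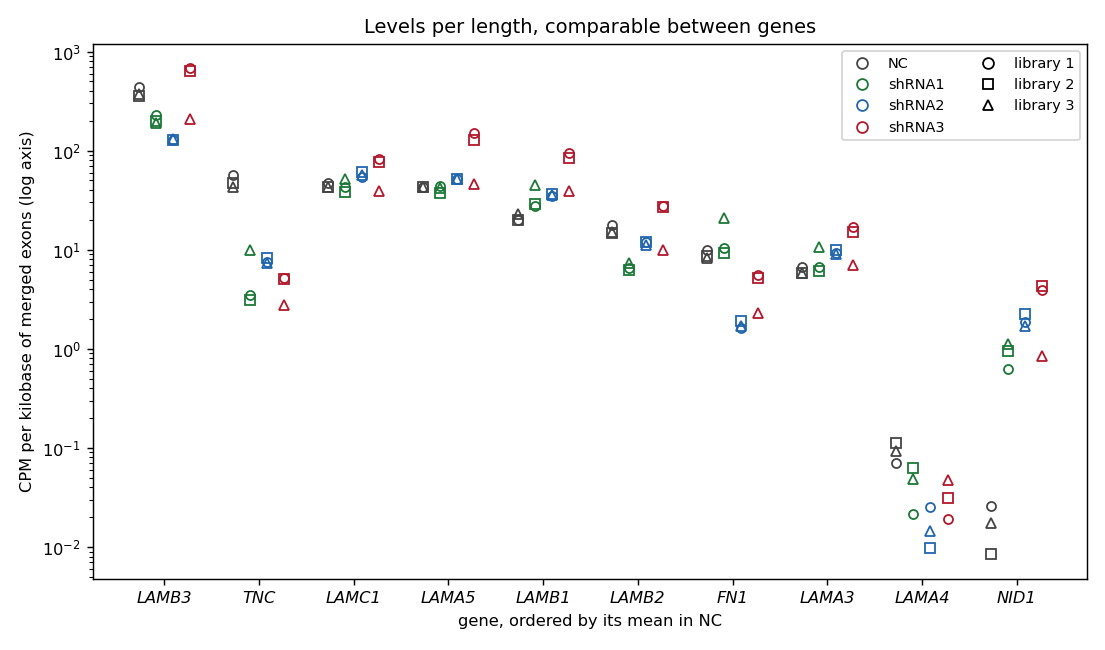
CPM per kilobase of merged exons (log axis) in each library for the 9 genes and the chain LAMB2, ordered by the mean in NC. LAMB3 is highest in every group, and LAMA4 and NID1 lie at the bottom in NC, at 0.0908 and 0.0172 on average.

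For each member the genes with the most similar profile over the 12 libraries were found by Pearson correlation of log2(CPM + 1) among 14679 genes, as a description that follows the group differences and carries no p. For TNC these were MRPL48 and MYLK (r = 0.981 and 0.979), and for NID1 FANCA and PDLIM5 (0.992 for each). FN1 was nearest to BAIAP2L1 and to the tissue factor gene F3 (0.968 and 0.959), and LAMB3 to H2BC20P and KIF21B (0.991 and 0.987). LAMA3 was nearest to PDCD6P1 and HJURP (0.979 and 0.977), LAMA4 to NFE2L2 and MNAT1 (0.929 and 0.925), LAMA5 to TMBIM6 and GRB7 (0.988 and 0.987), LAMB1 to ENSG00000284946 and SQLE (0.986 and 0.983) and LAMC1 to APLP2 and HTT (0.976 and 0.966). No member was among the 2 nearest genes of another.

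Related genes were then counted in lists of other laminin chains, basement membrane partners, receptors, matricellular genes and proteases. Of all tested genes, 16% were higher and 19.7% lower with all 3 hairpins, which is the background of the counts in each list. Of the 5 other laminin chains counted, 3 rose and 1 fell with all 3 hairpins. The risers were LAMA2, the α chain of muscle and nerve, from 0.353 ± 0.155 CPM in NC (SD, n = 3) to 8.53 ± 3.44, 4.22 ± 0.90 and 4.02 ± 1.33 with shRNA1, shRNA2 and shRNA3, LAMC3 from 0.485 ± 0.0751 to 3.40 ± 0.192, 4.07 ± 0.565 and 4.16 ± 0.814, and LAMB4 from 0.336 ± 0.207 to 2.56 ± 1.11, 3.36 ± 1.06 and 2.29 ± 0.746. LAMA1, the embryonic α chain, fell from 3.08 ± 0.449 CPM to 0.431 ± 0.149, 0.0739 ± 0.128 and 0.303 ± 0.135 and is named because it is the single chain that fell. These 4 chains were minor, since none exceeded a mean of 8.53 CPM in any group. LAMA2, LAMC3 and LAMB4 passed the filter on low counts only through shRNA libraries and LAMA1 only through NC, where each was high. The same holds below for MMP3 (shRNA libraries) and for ITGA4 and ITGA7 (NC). The list counts include such genes and are a description without a test.

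Of 14 basement membrane partners, 12 were tested and 1 rose and 4 fell with all 3 hairpins. COL4A6, a collagen IV chain of epithelial basement membranes, rose from 6.39 ± 0.311 CPM in NC to 51.6 ± 9.61, 54.6 ± 1.70 and 45.6 ± 10.0, at log2 fold changes of 3.01, 3.09 and 2.83. COL4A2, a chain of the ubiquitous collagen IV network, fell, at -1.65, -1.63 and -1.23, COL18A1 at -1.73, -1.61 and -0.97, and NTN4, a laminin-related netrin, at -1.69, -0.85 and -1.09. The proteoglycan perlecan, HSPG2, was at 489 ± 25.1 CPM in NC and 68.2 ± 16.0, 172 ± 5.22 and 256 ± 157 with the hairpins. It fell with shRNA1 and shRNA2 (-2.84 and -1.51) and did not pass with shRNA3 (-0.93, adjusted p = 0.0758, edgeR quasi-likelihood), although without shRNA3 libraries 1 and 2 it was lower (-2.58, adjusted p = 1.12e-06). Without those libraries COL18A1 was at -2.05 and COL4A2 at -2.09, both past the threshold. The COL18A1 call with shRNA3 was lost in a fit of the NC and shRNA3 libraries alone (adjusted p = 0.113) and without NC library 2 or 3. The median log2 fold change of the list was -1.67, -0.70 and -0.59, beside -0.02, -0.05 and -0.03 over all genes.

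Among 10 laminin receptors and hemidesmosome genes, 2 rose and 2 fell with all 3 hairpins. PLEC, the plakin that ties α6β4 integrin to keratins, rose from 745 ± 76.4 CPM to 2880 ± 340, 1750 ± 16.0 and 2070 ± 327, and DAG1, which encodes dystroglycan, from 190 ± 19.2 to 316 ± 83.6, 456 ± 13.2 and 427 ± 47.0. BCAM, a receptor of the α5 chain, fell from 746 ± 38.8 CPM to 114 ± 7.18, 146 ± 1.68 and 344 ± 126, and ITGA7, a laminin-binding integrin of muscle, from 4.70 ± 0.118 to 0.265 ± 0.123, 0.378 ± 0.213 and 0.271 ± 0.0419. BCAM with shRNA3 was at -1.86 instead of -1.12 on the log2 scale without libraries 1 and 2. Medians over the list were 0.00, 0.34 and 0.33 on the log2 scale.

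Of 11 fibronectin and tenascin receptors, 8 were tested, and 2 rose and 5 fell with all 3 hairpins. ITGA4, a fibronectin-binding α subunit, had 13.9 ± 0.541 CPM in NC and 0 counts in all 9 shRNA libraries, at least 93.1-, 81.9- and 70.9-fold lower against a floor of 3 counts per library. ITGB6, whose product pairs with αV to bind fibronectin, tenascin C and latent TGF-β, fell from 36.7 ± 2.75 CPM to 0.166 ± 0.0286, 0.0936 ± 0.118 and 1.13 ± 0.556, at -5.04 on the log2 scale with shRNA3 and -5.90 without its libraries 1 and 2. ITGAV itself fell from 204 ± 10.6 CPM to 54.9 ± 20.5, 45.5 ± 5.54 and 56.2 ± 15.1. The syndecan SDC1 rose from 128 ± 6.09 CPM to 382 ± 50.7, 336 ± 15 and 514 ± 39.2.

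Of 16 other matricellular and fibronectin-binding genes, 13 were tested, and 3 rose and 3 fell with all 3 hairpins. SPARC, a collagen-binding matricellular protein, fell from 725 ± 34.4 CPM to 21.6 ± 7.15, 0.473 ± 0.170 and 1.39 ± 1.06. THBS1, thrombospondin 1, fell from 836 ± 123 CPM to 98.6 ± 60.3, 18.3 ± 0.460 and 32.5 ± 12.5, and CCN2 from 71.8 ± 8.33 to 4.79 ± 1.39, 0.760 ± 0.218 and 6.61 ± 5.16. With shRNA3, SPARC, CCN2 and THBS1 without libraries 1 and 2 were at -9.89, -6.55 and -5.48 on the log2 scale instead of -9.06, -3.46 and -4.69. TNXB, another tenascin, moved opposite to TNC and rose from 15.2 ± 1.58 CPM to 99.1 ± 4.39, 125 ± 8.86 and 131 ± 29.2.

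Of 10 proteases that can cleave these proteins, 9 were tested, and 3 rose and 4 fell with all 3 hairpins. MMP14, a membrane-bound metalloproteinase, fell from 420 ± 52.9 CPM to 0.582 ± 0.120, 0.772 ± 0.425 and 2.10 ± 1.40, and PLAU, the urokinase activator of plasminogen, from 496 ± 26.7 to 8.86 ± 1.17, 5.24 ± 0.0779 and 13.3 ± 5.56. TLL2, a tolloid-like protease, fell from 8.52 ± 1.80 CPM to 0.858 ± 0.439, 0.320 ± 0.0784 and 0.887 ± 0.0814. MMP3, stromelysin 1, was nearly absent from NC, where no library held over 2 counts, and stood at 12.7 ± 4.81, 5.73 ± 0.480 and 6.99 ± 2.77 CPM with the hairpins, ratios of summed counts of 254 (exact 95% interval 86.7 to 1240), 114 (38.7 to 557) and 132 (44.7 to 643), again for counting error only. With shRNA3 and without its libraries 1 and 2, MMP14, PLAU and MMP3 were at -9.68, -6.02 and 6.25 on the log2 scale instead of -7.70, -5.23 and 6.94.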

How the data were processed

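Total RNA of the 12 libraries was sequenced after NEBNext Ultra library preparation, per the labels' protocols. The authors deposited 1 table of estimated counts per gene, of which 13.8% of values are not whole (tolerance 1e-06). Per the submitters' processing notes the tools were HISAT2 and HTSeq 0.11.2 on GRCh38. Which tool gave the values that are not whole is not stated there. The annotation, the strand setting and any filter are not given in the sources used here. Samples were grouped by their treatment labels, every sample column matched 1 sample, and library totals were 17286934 to 19567192.

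The counts were rounded to whole numbers, filtered with filterByExpr (minimum count 10, total 15), scaled by TMM and fitted in 1 model of 12 libraries with edgeR 4.0.16 (quasi-likelihood, two-sided, Benjamini-Hochberg over 17532 genes, threshold 0.05, common biological coefficient of variation 0.289) in R 4.3.3. CPM are TMM-scaled. Gene models are GENCODE release 29, and promoter sequences are RefSeq. The fit was tested on simulated counts with less spread, far fewer changed genes and no outlying libraries. That test therefore does not cover these features of the data. The 9 genes and all lists were chosen with earlier results of these data known. Always named were the 9 genes, LAMB2, NID2 and HSPG2. Further genes of the lists are not reported here. From each list up to 4 genes with a mean of at least 1 CPM that passed for all 3 hairpins in 1 direction were named, by the size of their smallest change, and for each of the 9 genes the 2 most similar genes. Alternatives were other scalings, no filter, DESeq2 1.42.0, fits of the compared groups alone, a replicate block, and leaving out libraries. The length of the longest coding transcript was added after seeing the data.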

Additional observations from a re-analysis of the deposited data

Results flagged for a closer look

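Between hairpins against the same target, 8 differences among the 9 genes passed the edgeR quasi-likelihood test of the difference itself, all adjusted with Benjamini-Hochberg over all genes. FN1 was higher with shRNA1 than with shRNA2 by 2.95 on the log2 scale (SE 0.37, adjusted p = 0.00173) and than with shRNA3 by 1.63 (SE 0.35, adjusted p = 0.00946), and shRNA2 against shRNA3 gave -1.31 (SE 0.35, adjusted p = 0.0456). For LAMB3, shRNA1 against shRNA3 gave -1.30 (SE 0.34, adjusted p = 0.0183) and shRNA2 against shRNA3 gave -1.98 (SE 0.35, adjusted p = 0.0248). For shRNA1 against shRNA3, LAMA5 was at -1.40 (SE 0.32, adjusted p = 0.0117), LAMB1 at -1.10 (SE 0.29, adjusted p = 0.019) and NID1 at -1.74 (SE 0.49, adjusted p = 0.0242). Without shRNA3 libraries 1 and 2, the differences of LAMA5, LAMB1, LAMB3 and NID1 between shRNA1 and shRNA3 were -0.20, -0.22, -0.02 and 0.07 and did not pass.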

How the results depend on the processing

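TNC and NID1 kept their direction and call against NC for all 3 hairpins in every alternative run, and so did FN1 and LAMB3 with shRNA2. Without shRNA3 libraries 1 and 2, signs turned for shRNA3 against NC in LAMB3 (-0.88), LAMC1 (-0.16) and LAMB2 (-0.64), for shRNA1 against shRNA3 in LAMA3 (0.14), LAMA4 (-0.10), LAMC1 (0.17) and NID1 (0.07), and for shRNA2 against shRNA3 in LAMA3 (0.41), LAMA5 (0.15), LAMC1 (0.54) and NID1 (1.16). With library totals in place of TMM, LAMB3 in shRNA3 against NC was at -0.04 and LAMC1 in shRNA2 against shRNA3 at 0.06, the median of all genes moved by up to -0.32 (shRNA3 against NC), and 35.1% of the shRNA3 calls were higher instead of 48.9%. LAMC1 in shRNA1 against NC, at 0.00, was at 0.02 without a filter, at 0.01 with the replicate block and between -0.13 and 0.11 when 1 replicate was left out. In the same way LAMB1 in shRNA1 against shRNA2 lay between -0.34 and 0.05, and TNC in shRNA1 against shRNA3 between -0.41 and 0.62. The cause was not tested.

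Requiring a log2 change of at least 1 left 4 of the 7 genes called for the mean of the hairpins against NC. In fits of the compared groups alone 9 genes instead of 6 were called for shRNA2 against NC, 5 between shRNA1 and shRNA2, and 0 between shRNA1 and shRNA3 and between shRNA2 and shRNA3 by edgeR, where 5 had an unadjusted p under 0.05 in each and DESeq2 on all libraries called 5 and 4. Without shRNA3 libraries 1 and 2 the latter counts were 1 and 1, and for shRNA2 against shRNA3 the count was 1 with library totals and 1 without a filter. Leaving out 1 replicate gave 1 to 2, 1 to 7 and 0 to 7 genes for shRNA1 against shRNA2, shRNA1 against shRNA3 and shRNA2 against shRNA3, and where the count was 0, 4 genes had an unadjusted p under 0.05. Deviations of libraries with equal replicate numbers had a mean correlation of -0.0107 over 18 pairs (-0.0963 to 0.0968). This shows no pairing but cannot exclude it. The replicate block left 1 gene between shRNA2 and shRNA3. Depth limits LAMA4 and NID1, whose counts were as low as 2 and 1.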
